A study of Mus musculus with 13 samples.

Results

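The genes described here are the clade B serpins, the stefins and 3 related cystatins, all inhibitors of proteases or relatives of such inhibitors. They were measured in bulk RNA from tongue epithelium of mice with and without the mutant histone H3K36M. Members were the genes named Serpinb or Stfa, together with Csta1, Cstb, Cst3 and Cst6, that had reads in the authors' deposited table of statistics. This gave 35 of the 19909 genes with reads, of which 27 were clade B serpins and 8 were stefins and cystatins.

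In the H3K36M group, 6 samples carried Krt14-Cre together with LSL-H3K36M, an allele that Cre switches on and that encodes histone H3 with methionine in place of lysine 36. The control group of 7 samples carried LSL-H3K36M without Cre. The Krt14 promoter drives Cre in keratin 14-expressing cells of stratified epithelia, where the basal layer lies. Cre was present in 1 group and absent from the other, so what Cre does on its own and what the mutant histone does cannot be told apart. The sources used here do not give the age, sex or strain of the mice, or which animal each sample came from.

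The deposited statistics hold 1 fitted level per gene and group, in normalised counts, and no value of a single sample. A spread between samples is therefore known only through the authors' standard error (SE), and overlap between the groups' samples cannot be shown. All 11 suprabasal keratinocyte markers and all 7 basal ones had reads. So did all 10 skeletal muscle genes examined, so having reads does not by itself identify the tissue. The suprabasal keratin Krt76 alone stood at 34721 normalised counts in H3K36M and 132167 in control in the authors' deposited table. Summed levels of the muscle genes were 27172 in H3K36M and 99735 in control.

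A serpin inhibits a protease by offering an exposed stretch, the reactive centre loop, as bait. On cleavage the loop inserts into the serpin's body and traps the protease. Clade B serpins lack a classical secretion signal and act mostly inside cells, and several are abundant in stratified squamous epithelia. Stefins are small cytosolic proteins that block cysteine cathepsins, whereas cystatin C (Cst3) and cystatin E/M (Cst6) are secreted. Cystatin E/M acts on legumain and cathepsins in the cornifying layers of skin.

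One member was lower in H3K36M and none was higher. Serpinb3c, one of 4 mouse relatives of the human squamous cell carcinoma antigens, fell about 7.03-fold. The other 26 members tested did not pass the authors' threshold, an adjusted p below 0.05 over all 17449 genes tested by DESeq2. Over all tested genes 3.43% were called, 1.59% as lower and 1.85% as higher, so 1 call among 27 members is close to the share of all genes. At an unadjusted p below 0.05, 5 of the 27 members were found in the authors' deposited table, against 9.82% of all tested genes. Of these 5, 2 were lower and 3 higher, against 4.79% lower and 5.04% higher over all tested genes. Among the 2551 tested genes whose mean was 1000 normalised counts or more, 2.12% were called and 1.69% were lower, and 16 members, Serpinb3c among them, had such a mean. In bulk tissue, fewer cells that express a gene and less RNA per cell cannot be told apart.

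The 4 Serpinb3 genes lie in a row on the minus strand of chromosome 1 (GRCm38). Their promoter windows are shown because they show how alike Serpinb3a, Serpinb3b and Serpinb3c are near their annotated starts. The Serpinb3d window may not lie at a matching place. Fold changes of the 4 genes ran from −0.76 to −2.81 on the log2 scale. Each window runs from 250 bases before to 50 bases after the annotated start (RefSeq, GRCm38.p6). The lines cover chr1:107052254-107052553 for Serpinb3a, chr1:107161065-107161364 for Serpinb3b, chr1:107278322-107278621 for Serpinb3c and chr1:107083431-107083730 for Serpinb3d. Capitals mark the TATA box motif TATAAA on either strand.
Serpinb3a: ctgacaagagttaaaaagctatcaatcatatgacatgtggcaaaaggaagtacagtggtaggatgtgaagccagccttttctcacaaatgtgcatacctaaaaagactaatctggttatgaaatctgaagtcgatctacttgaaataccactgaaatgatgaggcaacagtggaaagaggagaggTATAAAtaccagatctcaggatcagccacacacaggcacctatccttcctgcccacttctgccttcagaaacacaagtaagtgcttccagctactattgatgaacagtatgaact
Serpinb3b: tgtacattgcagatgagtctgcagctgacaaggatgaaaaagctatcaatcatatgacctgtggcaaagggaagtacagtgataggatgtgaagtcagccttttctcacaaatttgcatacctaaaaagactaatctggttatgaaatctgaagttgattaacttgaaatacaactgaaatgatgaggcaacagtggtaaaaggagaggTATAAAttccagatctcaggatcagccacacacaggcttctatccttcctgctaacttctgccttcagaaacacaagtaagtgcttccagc
Serpinb3c: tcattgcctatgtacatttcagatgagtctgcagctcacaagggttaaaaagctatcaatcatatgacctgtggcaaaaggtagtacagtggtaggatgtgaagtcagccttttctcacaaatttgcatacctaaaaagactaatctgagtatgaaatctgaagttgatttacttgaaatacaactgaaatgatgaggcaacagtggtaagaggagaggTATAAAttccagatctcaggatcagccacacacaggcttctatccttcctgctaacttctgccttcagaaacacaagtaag
Serpinb3d: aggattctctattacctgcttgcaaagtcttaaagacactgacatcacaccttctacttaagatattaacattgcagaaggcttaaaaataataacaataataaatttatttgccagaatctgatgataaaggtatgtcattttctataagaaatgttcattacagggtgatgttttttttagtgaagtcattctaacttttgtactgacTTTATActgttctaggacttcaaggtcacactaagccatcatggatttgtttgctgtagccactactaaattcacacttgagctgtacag

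Serpinb3b and Serpinb3c shared 279 of 290 aligned bases (96.2%), in windows whose annotated starts are offset from each other. Serpinb3a shared 93.6% with Serpinb3c over 266 aligned bases and 93.1% with Serpinb3b over 276. The Serpinb3d window was unlike the others, with a longest shared run of 9 bases with Serpinb3c. The annotated start of Serpinb3d falls on the letters atg, and GENCODE extends the gene upstream of that start, to chr1:107083506. This window may therefore lie at a coding start, so its unlikeness was not read as a difference between promoters. All 4 windows held 1 TATA match, and none held the AP-1 motif TGANTCA. In Serpinb3d the match lay on the strand opposite to transcription, 40 bases before the atg, so its place cannot be compared with the others. In Serpinb3c the match began 31 bases before the annotated start, and in Serpinb3a it began 65 bases before. Over all 32851 windows of this length in the table, 13.6% held TATAAA and 7.81% held TGANTCA, both searched on both strands. The 31 members with a window had 37 windows between them, of which 11 held TATAAA and 9 held TGANTCA. A match is a description of letters and does not show a bound site.

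The coding sequences also differ in the loop that meets the protease. The next lines show 54 bases of each coding sequence (bases 1012 to 1065 from the start codon, GENCODE M21 transcripts on GRCm38), beginning at the hinge of the reactive centre loop. Capitals mark bases that differ from Serpinb3a at the same position.
Serpinb3a: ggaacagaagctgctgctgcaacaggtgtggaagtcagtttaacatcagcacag
Serpinb3b: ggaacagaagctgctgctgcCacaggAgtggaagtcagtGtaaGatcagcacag
Serpinb3c: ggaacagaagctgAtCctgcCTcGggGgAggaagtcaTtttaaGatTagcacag
Serpinb3d: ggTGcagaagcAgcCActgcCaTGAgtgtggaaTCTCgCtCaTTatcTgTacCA

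Serpinb3b differed from Serpinb3a at 4 of these 54 bases, Serpinb3c at 10 and Serpinb3d at 21. Over the whole coding sequence, Serpinb3c matched Serpinb3b at 93.1%, Serpinb3a at 91.2% and Serpinb3d at 86.3% of aligned bases. These differences are dense enough for most reads of 75 bases to be told apart. Of all 75-base windows in Serpinb3c transcripts, 97.4% occurred in no other annotated gene, and 97.7% did in Serpinb3b, 99.1% in Serpinb3d and 91.9% in Serpinb3a. The shared windows of Serpinb3a lay almost all in Gm8080. One annotated transcript of Serpinb3b starts in the first exon of Serpinb3c, and the 2 genes share 35 exonic bases. How the authors assigned reads that fit several genes is not given in the sources used here.

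Serpinb3c (ENSMUSG00000073601.2, chr1:107271201-107278371) had a fitted level of 5753 normalised counts in H3K36M and 40446 in control in the authors' deposited table. Its log2 fold change there was −2.81 (SE 0.62), with adjusted p = 0.000489 by the authors' DESeq2. The 95% interval of that log2 fold change ran from −4.04 to −1.59, which leaves a level in H3K36M between 0.0610 and 0.332 of that in control. By the p-values of the authors' deposited table it ranked 228th, and by mean level 65th. Of its human relatives, SERPINB3 inhibits cysteine proteases such as cathepsin L, and SERPINB4 inhibits cathepsin G.

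The other 3 genes of the group also had lower fitted levels in H3K36M, but none passed the threshold. Serpinb3a, the most abundant member, stood at 101981 normalised counts in H3K36M and 173172 in control, with a log2 fold change of −0.76 (SE 0.57, adjusted p = 0.865) in the authors' deposited table. Serpinb3b stood at 2586 in H3K36M and 5464 in control there, a log2 fold change of −1.08 (SE 0.57, adjusted p = 0.551) in the authors' deposited table. Serpinb3d, the least abundant of the 4, had 142 normalised counts in H3K36M and 378 in control, with −1.41 (SE 0.53, adjusted p = 0.146) in the authors' deposited table. With the test statistic centred on its median and scaled over all genes, Serpinb3d passed (adjusted p = 0.0443 from the authors' DESeq2 statistics). Its interval as deposited lay below 0 (−2.44 to −0.38), whereas those of Serpinb3a (−1.87 to 0.34) and Serpinb3b (−2.19 to 0.03) did not. The intervals of all 4 genes overlapped, and a test of the difference between Serpinb3c and its neighbours would need values of single samples, so it was not made.

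The makeup of the Serpinb3 group differed between the fitted levels. Serpinb3c gave 5.21% of the summed level of the 4 genes in H3K36M and 18.4% in control, and Serpinb3a gave 92.3% in H3K36M and 78.9% in control. Together the 4 genes took 0.740% of all normalised counts in H3K36M and 1.33% in control. These shares are sums of fitted levels and have no error of their own.

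**Figure D1:**
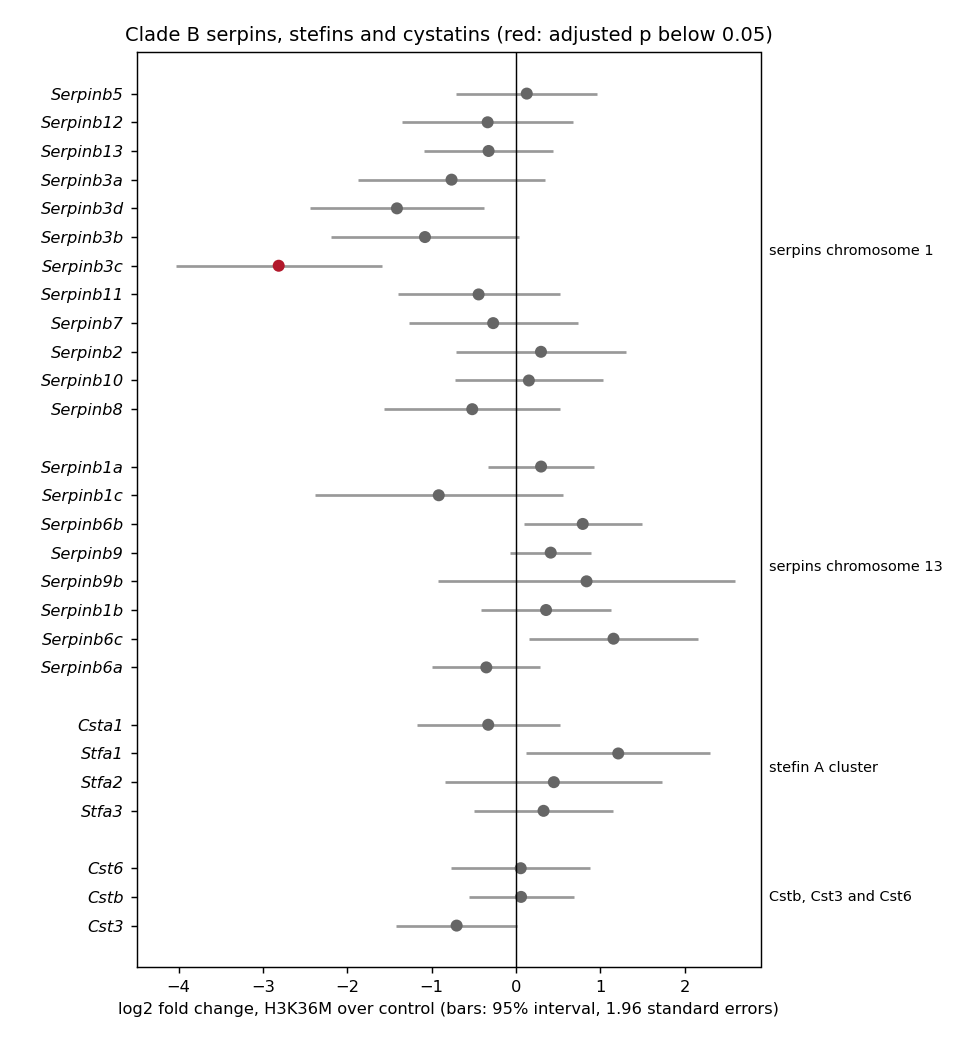
Log2 fold changes of the 27 members with an adjusted p, H3K36M over control, with 95% intervals from the authors' standard errors, grouped by gene cluster and in chromosomal order. Serpinb3c at −2.81 is the only point past the threshold, and the intervals of most other members include 0.

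Levels of other tissue markers moved in the same comparison. Of the 11 suprabasal markers 3 were lower and none higher in the authors' deposited table, namely Krt76 (log2 fold change −1.93), Krt24 (−1.37) and Krt78 (−0.62), and of the 7 basal markers Krt14 was lower (−0.87). The summed level of the suprabasal list was 1919260 normalised counts in H3K36M and 2397800 in control, and that of the basal list was 102076 in H3K36M and 129647 in control. For 10 skeletal muscle genes the median was −1.91, with none called, none at an unadjusted p below 0.05 by the authors' DESeq2, and summed levels of 27172 in H3K36M and 99735 in control. Of 10 tested salivary and ductal markers, 9 were called as higher by the authors' DESeq2. The other, Amy1, had a lower fitted level without a call, at 91.4 normalised counts in H3K36M and 515 in control. Its log2 fold change was −2.49 (SE 1.02), with an unadjusted p of 0.0147 and an adjusted p of 0.245 by DESeq2. Summed levels of the list, Amy1 included, were 3250 in H3K36M and 742 in control. Without Bpifa2, set aside as an outlier, these sums were 3226 in H3K36M and 729 in control. Of the fibroblast, endothelial, mast cell and macrophage lists no tested gene was called, with medians of 0.08, −0.48, −0.43 and 0.23, and 2 genes in all (1 mast cell, 1 macrophage) at an unadjusted p below 0.05. The macrophage list also holds Lyz2, set aside as an outlier, at 4878 in H3K36M and 486 in control in the authors' deposited table. The list's summed level was 5797 in H3K36M and 1268 in control with Lyz2, and 919 in H3K36M and 782 in control without it. In the dendritic cell list 6 of 8 genes lay below 0, with a median of −0.21, and 2 had an unadjusted p below 0.05. Of these, Epcam, which epithelia also express, was called as higher (0.72, SE 0.20), and H2-Aa, at −0.52, was not called, in the authors' deposited table. The part of these marker groups in the lower level of Serpinb3c was not tested.

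Serpinb3c sits inside a cluster of 12 clade B genes that fills chr1:106861173-107610484. Among deposited genes with reads whose names could be placed, no other lay between them. Of these 12 genes, 1 was lower and none higher in the authors' deposited table, against 1.59% lower and 1.85% higher over all tested genes. That 1 gene is Serpinb3c, already counted above, so it adds no further call. Log2 fold changes had a median of −0.39 in the cluster and of −0.30 in the 8 genes outside the Serpinb3 group, against 0.07 over all tested genes. Values below 0 were found in 9 of the 12, whereas 43.4% of all tested genes lay below 0. None of the 4 tested genes within 400 kb on either side of the cluster was called by the authors' DESeq2, and none had an unadjusted p below 0.05.

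The other inhibitory serpins of this cluster had intervals that include 0. Serpinb12, which in human blocks trypsin-like proteases, was the second most abundant member, at 87726 normalised counts in H3K36M and 110731 in control and a log2 fold change of −0.34 (SE 0.52) in the authors' deposited table. Serpinb11, a trypsin inhibitor in mouse, had 7405 in H3K36M and 10065 in control, with −0.44 (SE 0.49) in the authors' deposited table. Serpinb13, which in human acts on cathepsins K and L, stood at 207 in H3K36M and 260 in control, with −0.32 (SE 0.39) in the authors' deposited table. All 3 had fitted levels slightly lower in H3K36M, by less than their error.

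Serpinb2, known as plasminogen activator inhibitor 2, had 4447 normalised counts in H3K36M and 3621 in control, a log2 fold change of 0.30 (SE 0.52) in the authors' deposited table. Serpinb8, a furin inhibitor in human, had 2218 in H3K36M and 3177 in control, with −0.52 (SE 0.53) in the authors' deposited table. Serpinb7, whose loss in human causes a palmoplantar keratosis, had 1640 in H3K36M and 1978 in control, with −0.27 (SE 0.51) in the authors' deposited table. The remaining pair of this cluster were level as fitted. Serpinb5 (maspin), a clade member that does not inhibit proteases, stood at 16768 in H3K36M and 15343 in control, with 0.13 (SE 0.43) in the authors' deposited table. Serpinb10, annotated in GENCODE as a polymorphic pseudogene in the reference genome, had 1829 in H3K36M and 1644 in control, with 0.15 (SE 0.45) in the authors' deposited table. Serpinb10 and Serpinb2 overlap on the same strand over 291 exonic bases, so their reads cannot be fully separated. Adjusted p-values of these 8 genes by the authors' DESeq2 ran from 0.990 to 0.991.

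**Figure D2:**
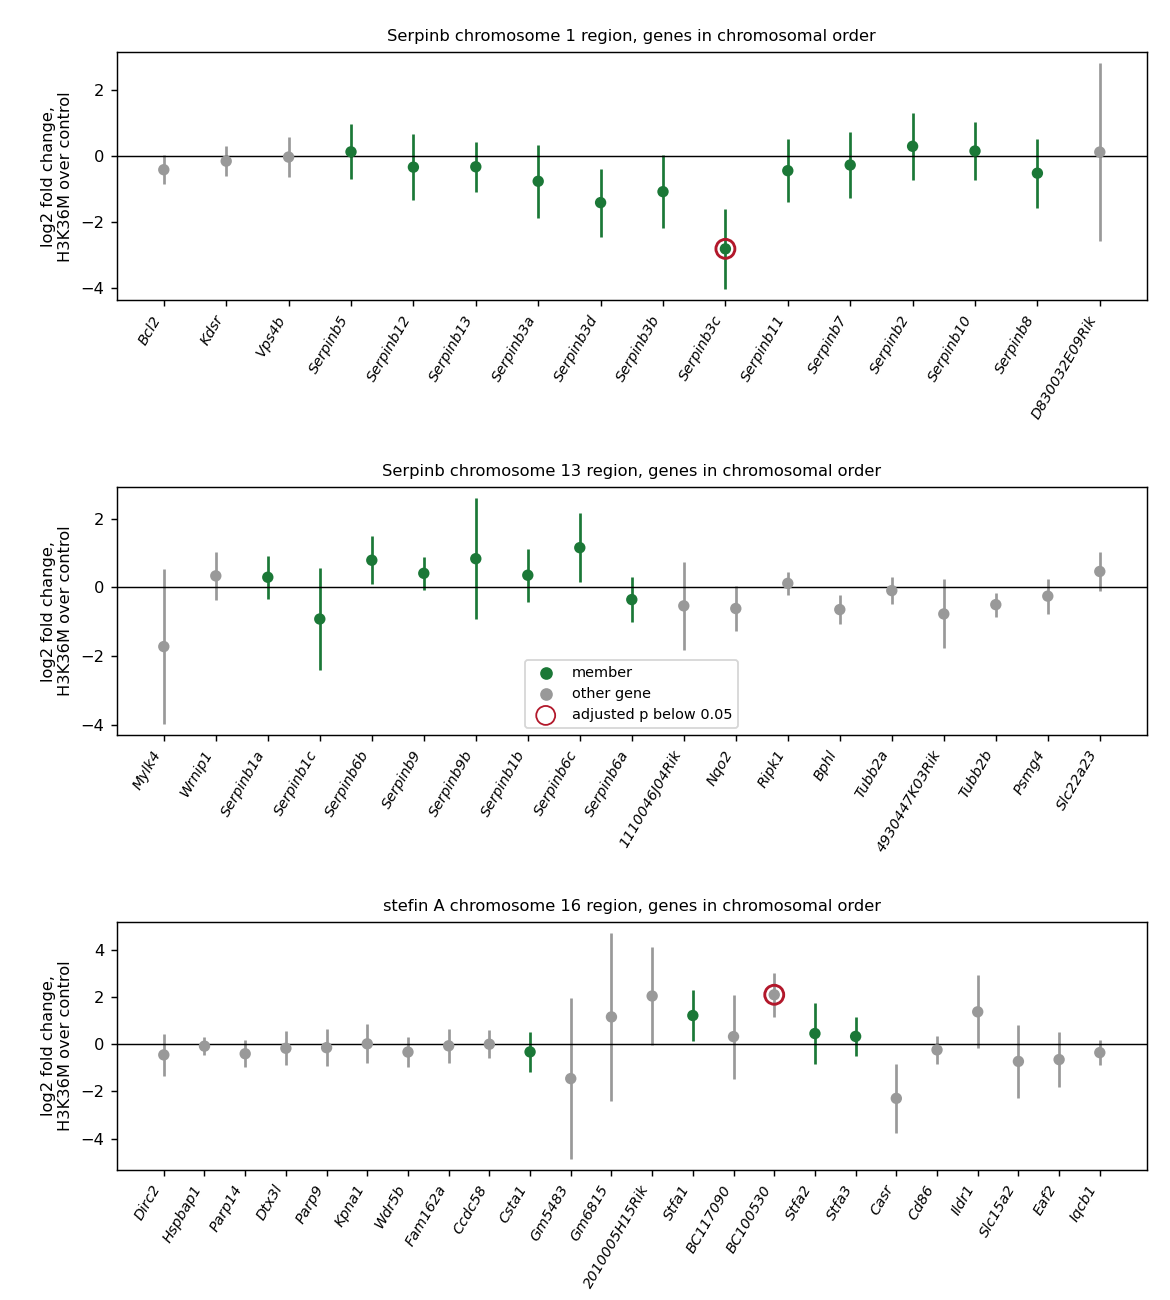
Log2 fold changes, H3K36M over control, with 95% intervals, for members (green) and other tested genes (grey) within and up to 400 kb around the 3 gene clusters, in chromosomal order but not to scale. Red rings mark an adjusted p below 0.05, which Serpinb3c and BC100530 reached.

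Order of abundance was read per length, as fitted level divided by exonic bases. In H3K36M, Serpinb3a came first with 62526 normalised counts per kb, followed by Serpinb12 with 35119 and Serpinb5 with 6097. Next in H3K36M were Cst3 (3762 per kb) and Cstb (3714 per kb), and Serpinb3c came sixth with 3468 per kb. In control, the order began with Serpinb3a (106176 per kb), Serpinb12 (44328 per kb) and Serpinb3c (24380 per kb). Differences in level between genes could not be tested. All members together took 1.67% of normalised counts in H3K36M and 2.34% in control.

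**Figure D3:**
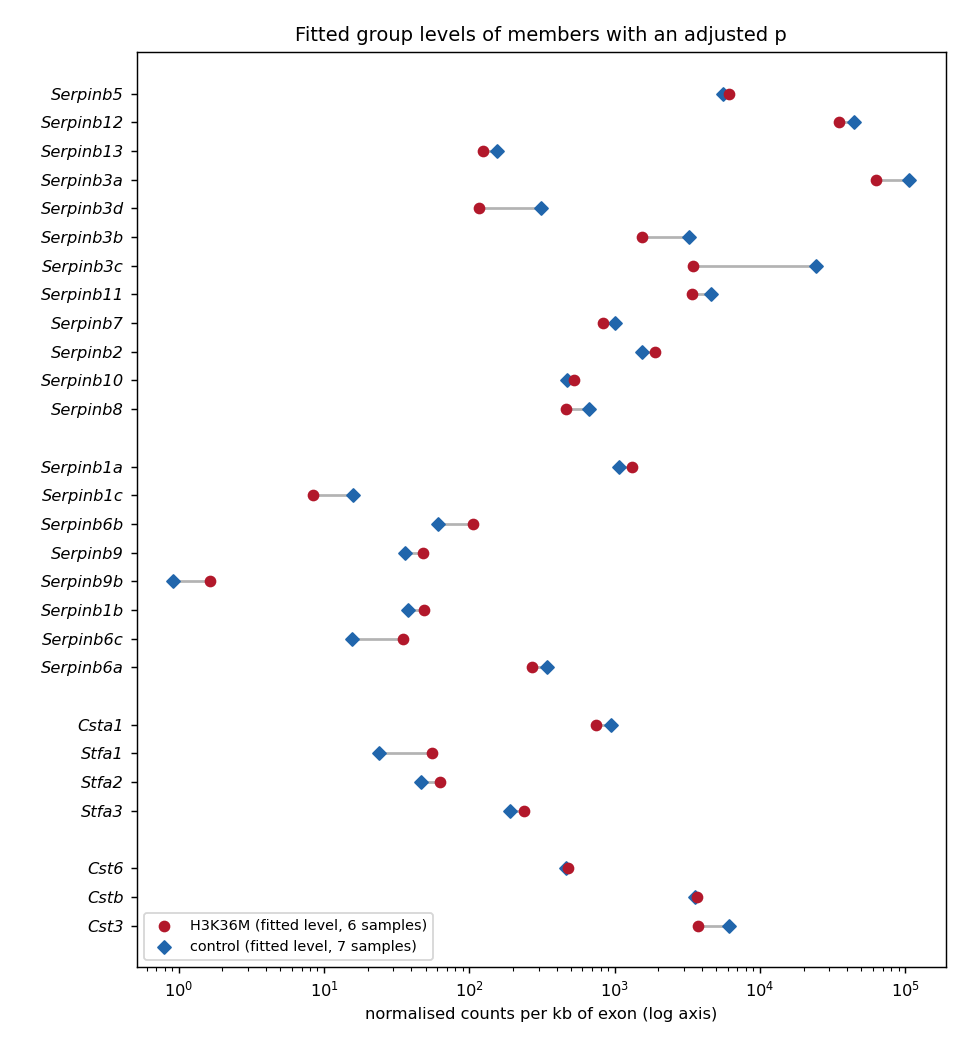
Fitted levels per kb of exon on a log axis for the 27 members with an adjusted p, in H3K36M (red circles) and control (blue diamonds); these are the authors' group values, with no spread to show. The gap is widest for Serpinb3c, at 3468 per kb in H3K36M and 24380 per kb in control.

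Clade B genes of chromosome 13 had no call by the authors' DESeq2. This cluster spans chr13:32842092-34002794 and holds 15 members, of which 8 were tested and 7 were too low to be tested. Of the 8, 6 had log2 fold changes above 0 and 2 below, with a median of 0.38. At an unadjusted p below 0.05, 2 of them were higher and none lower in the authors' deposited table, against 5.04% of all tested genes that were higher at that level. Of the 8 tested genes within 400 kb of the cluster none was called by the authors' DESeq2, with 2 at an unadjusted p below 0.05.

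The 2 members at that level, Serpinb6b and Serpinb6c, belong to the Serpinb6 group, copies related to an inhibitor of cathepsin G. Serpinb6b had 239 normalised counts in H3K36M and 138 in control, a log2 fold change of 0.79 (SE 0.36, adjusted p = 0.364) in the authors' deposited table. Serpinb6c had 48.3 in H3K36M and 21.7 in control, with 1.16 (SE 0.51, adjusted p = 0.329) in the authors' deposited table. Serpinb6a, the broadly expressed member of the group, had 1456 in H3K36M and 1858 in control, with −0.35 (SE 0.33, adjusted p = 0.984) in the authors' deposited table. The intervals of Serpinb6b (0.09 to 1.49) and Serpinb6c (0.16 to 2.16) lay above 0, and that of Serpinb6a (−0.99 to 0.29) included 0. Serpinb6a shares exonic bases with Nqo2 (762), 1110046J04Rik (584) and Ripk1 (241) on the opposite strand, whose reads can be told apart only if the authors counted by strand.

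The Serpinb1 and Serpinb9 groups restrain proteases of immune cells. Serpinb1a, an inhibitor of neutrophil elastase and cathepsin G, had 3025 normalised counts in H3K36M and 2460 in control, with 0.30 (SE 0.32) in the authors' deposited table. Serpinb1b stood at 94.1 in H3K36M and 73.5 in control, with 0.36 (SE 0.39), and Serpinb1c at 13.7 in H3K36M and 25.9 in control, with −0.92 (SE 0.75), both in the authors' deposited table. Serpinb9, which protects cells from granzyme B, had 167 in H3K36M and 125 in control, with 0.41 (SE 0.24, adjusted p = 0.683) in the authors' deposited table. Serpinb9b was scarce, at 5.49 in H3K36M and 3.07 in control, with 0.84 (SE 0.90) in the authors' deposited table. Markers of cytotoxic lymphocytes, the cells that carry granzyme B, were scarce, with a summed level over 9 genes of 17.7 in H3K36M and 18.8 in control. None of the 7 tested was called by the authors' DESeq2, and none had an unadjusted p below 0.05.

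The 7 untested serpins were Serpinb6d, Serpinb6e and Serpinb9c to Serpinb9g. Their summed normalised counts over all 13 samples ran from 0.564 (Serpinb9c and Serpinb9d) to 5.20 (Serpinb9f), so no direction was read from them. Copies of the Serpinb9 group also share the most sequence. Only 34.5% of the 75-base windows of Serpinb9f and 55.1% of those of Serpinb9g were found in no other gene.

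**Figure D4:**
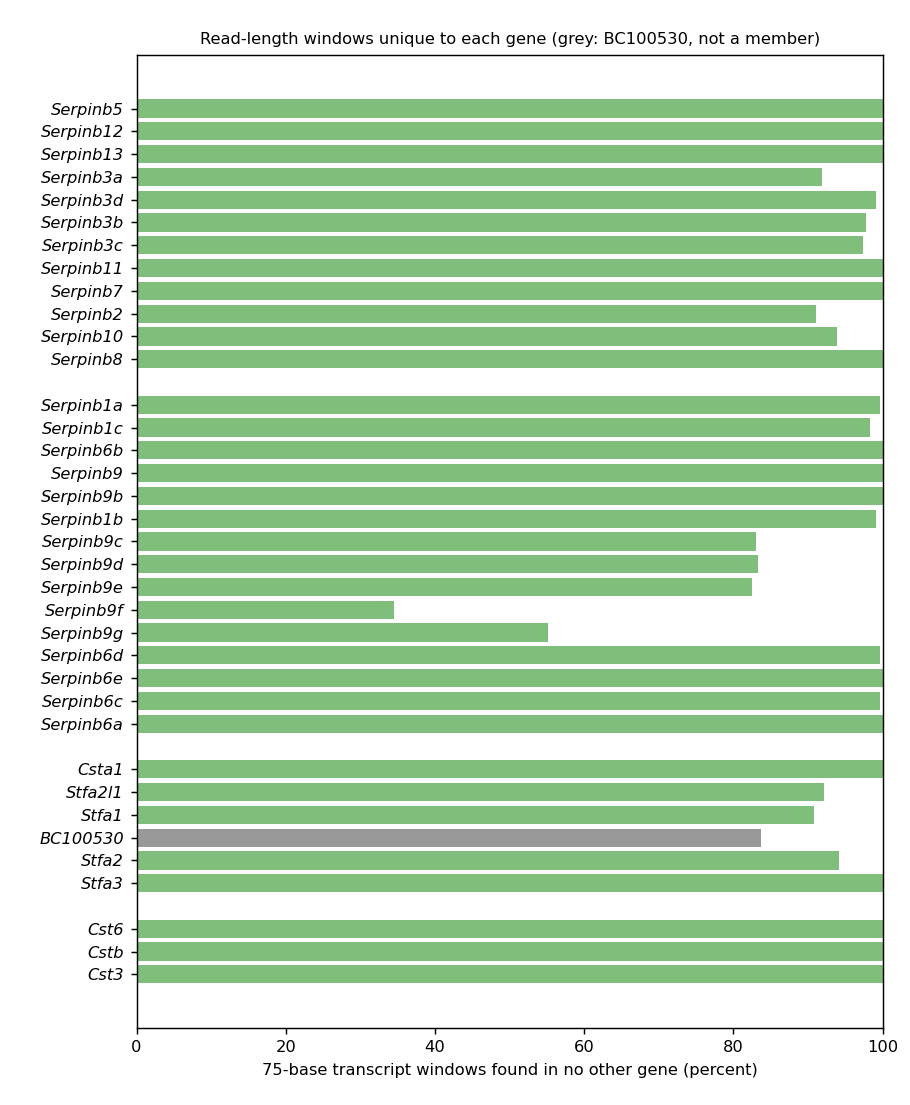
Share of 75-base windows in each gene's GENCODE M21 transcripts that occur in the transcripts of no other gene, for the 35 members (green) and BC100530 (grey). Serpinb9f at 34.5% and Serpinb9g at 55.1% stand lowest, while Serpinb3c is at 97.4%.

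Among the stefins and cystatins none of the 7 tested members was called by the authors' DESeq2 in either direction. At an unadjusted p below 0.05, 1 was higher and none lower, against 5.04% higher and 4.79% lower over all tested genes. Their median log2 fold change was 0.06, against 0.07 over all tested genes. Csta1, the stefin A of cornified envelopes, was the most abundant stefin of the chromosome 16 cluster, at 2083 normalised counts in H3K36M and 2616 in control, with −0.33 (SE 0.43, adjusted p = 0.990) in the authors' deposited table. Stefin B (Cstb) was the member with the second-smallest change, at 2239 in H3K36M and 2147 in control, with 0.06 (SE 0.32, interval −0.56 to 0.68) in the authors' deposited table. Its interval leaves a level in H3K36M between 0.677 and 1.61 of that in control.

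The secreted cystatins differed in their estimates. Cst3 had 4763 normalised counts in H3K36M and 7757 in control, a log2 fold change of −0.70 (SE 0.37, adjusted p = 0.540) in the authors' deposited table. Its interval, −1.42 to 0.02, just includes 0. Cst6 had 1968 in H3K36M and 1892 in control, with 0.06 (SE 0.42, adjusted p = 0.996) in the authors' deposited table.

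Stfa1, Stfa2 and Stfa3, small stefin A copies on chromosome 16, had fitted levels above control without a call. Stfa1 had 39.1 normalised counts in H3K36M and 16.9 in control, a log2 fold change of 1.21 (SE 0.56, adjusted p = 0.381) in the authors' deposited table. Its unadjusted p was 0.0294, and its interval lay above 0 (0.12 to 2.30). Stfa2 had 29.8 in H3K36M and 21.8 in control, with 0.45 (SE 0.66), and Stfa3 had 98.5 in H3K36M and 78.5 in control, with 0.33 (SE 0.42), both in the authors' deposited table. Stfa2l1 was too low to be tested, with a summed normalised count of 2.57 over all 13 samples.

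A gene in the same interval whose name falls outside the rule was called. BC100530 (chr16:36359382-36367748, minus strand) had 512 normalised counts in H3K36M and 120 in control, a log2 fold change of 2.09 (SE 0.48, adjusted p = 0.000903) in the authors' deposited table. It is shown here because its coding sequence is nearly that of Stfa1 (chr16:36276951-36285373, plus strand): the 2 differ at 6 of 294 bases. Both coding sequences follow (GENCODE M21 on GRCm38), with capitals at the bases that differ.
Stfa1: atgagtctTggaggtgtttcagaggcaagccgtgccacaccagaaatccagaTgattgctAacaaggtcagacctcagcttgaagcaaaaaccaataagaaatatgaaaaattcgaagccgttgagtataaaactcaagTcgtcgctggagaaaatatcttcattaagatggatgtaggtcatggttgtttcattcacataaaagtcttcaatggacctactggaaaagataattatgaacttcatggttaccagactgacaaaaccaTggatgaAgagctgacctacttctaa
BC100530: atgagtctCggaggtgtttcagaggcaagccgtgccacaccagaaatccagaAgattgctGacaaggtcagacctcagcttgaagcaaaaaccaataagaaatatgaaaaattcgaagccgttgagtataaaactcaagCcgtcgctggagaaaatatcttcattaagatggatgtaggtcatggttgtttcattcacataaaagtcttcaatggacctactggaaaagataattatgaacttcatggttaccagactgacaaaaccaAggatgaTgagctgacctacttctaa

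The 2 genes share 9.15% of the 75-base windows of Stfa1 and 8.23% of those of BC100530, so reads from those windows cannot be assigned to 1 of the genes by sequence. A further 8.10% of BC100530 windows also occur in BC117090. Of the other tested genes in this interval, 2010005H15Rik, which RefSeq names Csta2, had 4.08 normalised counts in H3K36M and 0.992 in control, with 2.04 (SE 1.06, adjusted p = 0.531) in the authors' deposited table. BC117090, Gm5483 and the pseudogene Gm6815 were not called either. None of the 15 tested genes within 400 kb on either side of the cluster was called by the authors' DESeq2, with 1 at an unadjusted p below 0.05.

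Stefin A copies are also made by neutrophils in mouse. Of 12 tested neutrophil markers, 2 were higher and none lower in the authors' deposited table, S100a8 (log2 fold change 3.85) and S100a9 (4.08), which keratinocytes express too. All 12 had values above 0, with a median of 2.67, and 8 of them had an unadjusted p below 0.05. The summed level of the 17 markers was 8887 normalised counts in H3K36M and 547 in control, of which Ltf, a gene set aside by the authors' tool as an outlier, gave 6440 in H3K36M and 59.5 in control. Without Ltf the sum was 2447 in H3K36M and 488 in control. Most of that remainder came from 3 genes, S100a8 (792 in H3K36M and 54.8 in control), S100a9 (911 in H3K36M and 53.9 in control) and Il1r2 (544 in H3K36M and 308 in control). Among the defining granule genes, Ngp stood at 7.15 in H3K36M and 0.176 in control, and Camp at 0.930 in H3K36M and 0.149 in control, in the authors' deposited table. Elane, Mpo and Ly6g, which were too low to be tested, had fitted levels below 0.5 normalised counts in both groups, and no marker of the list stood at 0 in both. The part of neutrophils in the level of BC100530 and Stfa1 was not tested.

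Known target proteases and other inhibitors gave the setting of these values. Of 11 cysteine cathepsins and legumain, the targets of stefins and of some clade B serpins, none was called, and the median log2 fold change was −0.20. Ctsb had 4677 normalised counts in H3K36M and 5467 in control, with −0.23 (SE 0.11, adjusted p = 0.453), and Ctsl 2209 in H3K36M and 2643 in control, with −0.26 (SE 0.29, adjusted p = 0.990), both in the authors' deposited table. At an unadjusted p below 0.05 the list held 1 gene, Ctsb.

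Of 15 tested serine proteases and caspases that clade B serpins bind or restrain, 1 was higher and none lower in the authors' deposited table, with a median log2 fold change of 0.23. This was Casp4, an inflammatory caspase of the non-canonical inflammasome, at 204 normalised counts in H3K36M and 61.4 in control, with 1.73 (SE 0.39, adjusted p = 0.000546) in the authors' deposited table. Membrane serine proteases of squamous epithelium had no call among 10, with a median of 0.43 and 3 at an unadjusted p below 0.05. Their most abundant members were level as fitted, Tmprss11a at 0.06 (SE 0.38) and Tmprss11d at 0.01 (SE 0.49) in the authors' deposited table.

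Serpins of other clades had no call among 23 tested, with a median log2 fold change of −0.34 and 2 at an unadjusted p below 0.05. The most abundant were Serpina9, at −0.87 (SE 0.38, adjusted p = 0.326), and Serpina12, a serpin known as vaspin, at −1.26 (SE 0.54, adjusted p = 0.288), in the authors' deposited table. Both had lower fitted levels in H3K36M, as the Serpinb3 genes did, and neither passed. Other cystatins had no call among 5, 1 at an unadjusted p below 0.05, and Fetub at −0.75 (SE 0.27, adjusted p = 0.119) and Ahsg at 0.01 (SE 0.43) in the authors' deposited table. Other epithelial protease inhibitors had no call among 15, 1 at an unadjusted p below 0.05 and a median of 0.52, with Slpi, an elastase inhibitor of mucosal secretions, at −0.14 (SE 0.38) and Wfdc12 at 0.16 (SE 0.48) in the authors' deposited table. One further inhibitor of that list, A2ml1, was set aside as an outlier, at 3716 normalised counts in H3K36M and 0.128 in control in the authors' deposited table. Over these 7 lists of proteases and inhibitors, the stefin A neighbours included, 83 of 111 listed genes were tested, and 2 were higher (Casp4 and BC100530) and none lower.

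**Figure D5:**
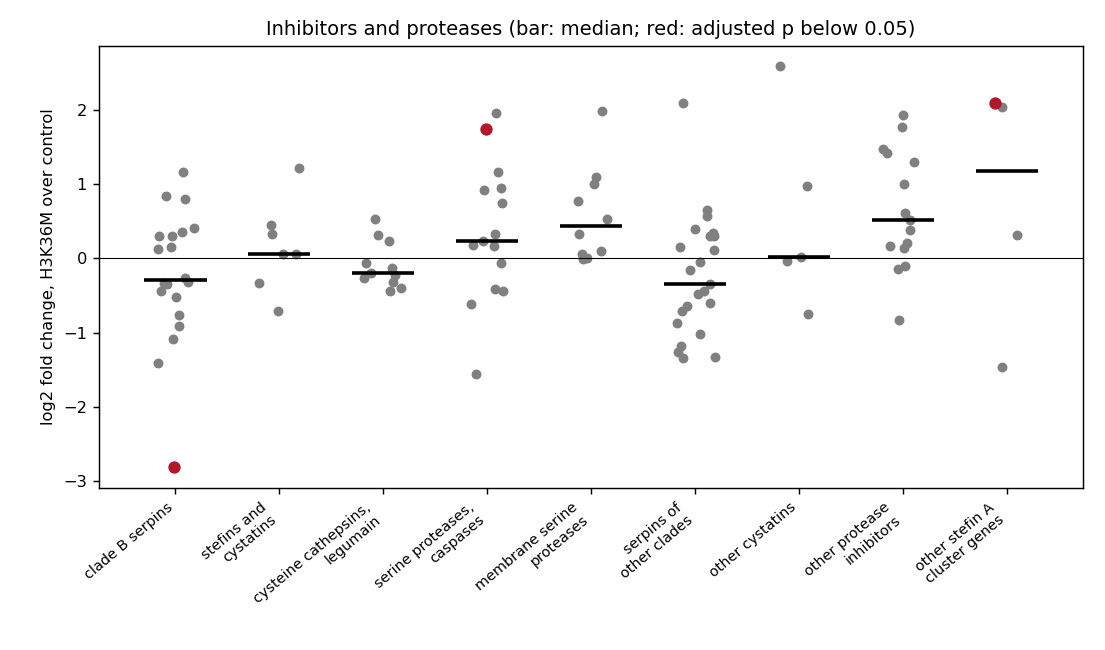
Log2 fold changes, H3K36M over control, of tested genes in the 2 member families and in 7 lists of proteases and other inhibitors; each point is a gene, black bars are medians and red points have an adjusted p below 0.05. The 3 red points are Serpinb3c at −2.81, Casp4 at 1.73 and BC100530 at 2.09.

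Precision is given by the SE, which had a median of 0.49 over the members' log2 fold changes (range 0.24 to 0.90). Expressed as a coefficient of variation between libraries beyond counting noise, assuming equal library sizes, this came to a median of 0.609 over the 27 members, with the lowest at 0.293 (Serpinb9) and the highest in the scarce Serpinb9b. It was 0.704 for Serpinb3a and 0.777 for Serpinb3c. Over the 2551 genes of high mean named above, the median was 0.393, but only 16 of the 27 members had such a mean. Over all tested genes the median SE was 0.47, close to the 0.49 of the members. Serpinb3a and Serpinb12, among the 10 genes with the highest means of the whole table, had standard errors that were almost wholly spread between samples, with little counting noise.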

How the data were processed

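Bulk polyA RNA from 6 H3K36M and 7 control samples of mouse tongue epithelium was read as single ends of 75 bases from a directional kit, as the labels' protocols state. The submitters' processing notes name STAR, DESeq2 and the build GRCm38 (mm10). Versions, gene annotation, read counter and strand setting are not given in the sources used here. What the authors deposited are fitted levels in normalised counts, a signal scale, and, per the file headers, the log2 fold change with its SE, the Wald statistic, which is a score, and p-values and adjusted p-values. The deposited mean matched the average of the group levels weighted by 6 and 7 samples (tolerance 1e-06) in 19909 of 19909 genes with reads, and fold changes above 0 went with a higher H3K36M level in each. Without single-sample values no count model was run, and depth per sample is unknown; means summed to 15769751 normalised counts. Genes with a mean under 0.405 had no adjusted p, and 175 genes were set aside as outliers, none of them a member. No label names the animals, so the p-values measure only the spread between samples, which may be technical.

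Intervals of 95% (1.96 SE), folds, levels per kb of merged exons (GENCODE M21, GRCm38, all 35 members matched) and sequence comparisons were computed with Python 3.11.15, pandas 2.3.3 and Biopython 1.88. Alternatives changed the threshold, the filter on low means, a minimum fold or the centring of the statistic. Readjustment was tested on simulated data. Members and the 18 gene lists were chosen with earlier results of these data known. Named genes were all members past the threshold or with a mean of at least 50, others where needed to account for them, and from each protease or inhibitor list the called genes or the 2 with the highest mean. Marker lists are given as counts, medians or summed levels, with their called genes. Tables of gene ontology terms name no genes and were not used. Promoters were from RefSeq (GRCm38.p6), which held windows for 31 of the 35 members.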

Additional observations from a re-analysis of the deposited data

How the results depend on the processing

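Serpinb3c was lower under all 6 alternatives tried: an adjusted p threshold of 0.01 or 0.1, no filter on low means, a mean of at least 50 normalised counts, an absolute log2 fold change above 1, and the Wald statistic centred on its median and scaled. Its deposited adjusted p of 0.000489 by DESeq2 and log2 fold change of −2.81 fixed the outcome for both thresholds and the minimum fold. All 6 reused the same deposited statistics, with no other samples, counts or model. With the statistic centred and scaled, 2 clade B serpins were lower, Serpinb3c and Serpinb3d (Serpinb3d adjusted p = 0.0443 from the authors' DESeq2 statistics), where 4.54% of all genes were called. For Cst6 the centred and scaled statistic multiplied by its SE was −0.011, against a deposited log2 fold change of 0.056. No fold change was fitted again. No member was higher under any of these. The median log2 fold change of the clade B serpins was −0.30 over the 20 tested genes, and changed sign to 0.079 with every member with reads included, where the 7 genes too low to test enter, and −0.32 at a mean of at least 50. Leaving out single replicates was not run, since the files hold no values of single samples. No paired analysis was possible because the sources used here give no pairing of samples between the groups and the result comes from a fitted table. Depth per sample was unknown, so no floor for the lowest members is given.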
